A study of Mus musculus with 4 samples.

Results

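Peptides that act on sensory nerve endings, blood vessels and pigment cells, together with their receptors, were examined in laser-captured mouse epidermis. The set holds 9 genes chosen by name, with earlier results of these data known. It has 4 genes of secreted peptides (Calca, Calcb, Edn1 and Pomc) and 5 of G protein-coupled receptors (Bdkrb1, Bdkrb2, Ednra, Ednrb and F2rl1). A gene was read from probe sets whose platform annotation held its symbol alone. That gave 6 of the 9, among 19938 named genes in all, with 1 probe set each. Calca, Ednra and F2rl1 were not analysed here. The arrays came from mice that overexpress noggin, a secreted protein that binds and blocks bone morphogenetic proteins (BMPs), or BMP4, one of those proteins. Both transgenes were driven by the K14 promoter, which is active in basal keratinocytes, so each line secretes its protein from the epidermis itself. Epidermis of hairless hindpaw skin was captured as 8 to 10 strips per animal, and each array received RNA pooled from 3 animals. The 6 animals of each line thus gave 2 noggin arrays and 2 BMP4 arrays. The labels give no strain, age or sex, and skin without a transgene was not analysed here. All differences below are therefore between transgenic lines.

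Calcb encodes beta-CGRP, a vasodilator peptide that sensory neurons release and that keratinocytes have been reported to make as well. Bradykinin, cut from kininogens in inflamed tissue, excites nociceptors through the B2 receptor (Bdkrb2), which is constitutive in most tissues. The B1 receptor (Bdkrb1), whose agonist carboxypeptidases make from bradykinin, is induced by injury and cytokines. Endothelin-1 (Edn1) is a vasoconstrictor that keratinocytes also secrete, and its B receptor (Ednrb) is needed by melanocytes and is also carried by endothelial cells and keratinocytes. Pomc encodes the precursor of the melanocortins and beta-endorphin.

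Bdkrb2 and Calcb had higher values in both noggin arrays than in both BMP4 arrays, by 1.52-fold and 1.27-fold, and the groups overlapped in the other 4 genes. No member passed the test. Limma gave 0 of 6 members an adjusted p below 0.05, where 0.0% of all 35556 probe sets passed. At an unadjusted p below 0.05 it gave 2 of 6 members, against 4.28% of the named genes. The 2 noggin values exceeded the 2 BMP4 values in 2 of 6 members and lay under them in 0, against 15.7% and 17.9% of the named genes. Because the members were chosen with earlier results of these data known, such shares describe the list and are no test of it. The mean was higher in noggin in 4 of 6 members, against 47.8% of the named genes. After cyclic loess between arrays it was higher in 6 of 6, with log2 differences of only 0.005 in Bdkrb1 and 0.01 in Pomc. That setting also moved the median difference of all probe sets from -0.0029 to 0.0013, and the share of named genes was not counted under it. The median difference of the 6, always given here in log2 units as noggin minus BMP4, was 0.06, and that of all named genes was -0.0064. Since 2 arrays against 2 cannot give an exact two-sided permutation p below 0.333, the values that follow describe these 4 pools.

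**Figure D1:**
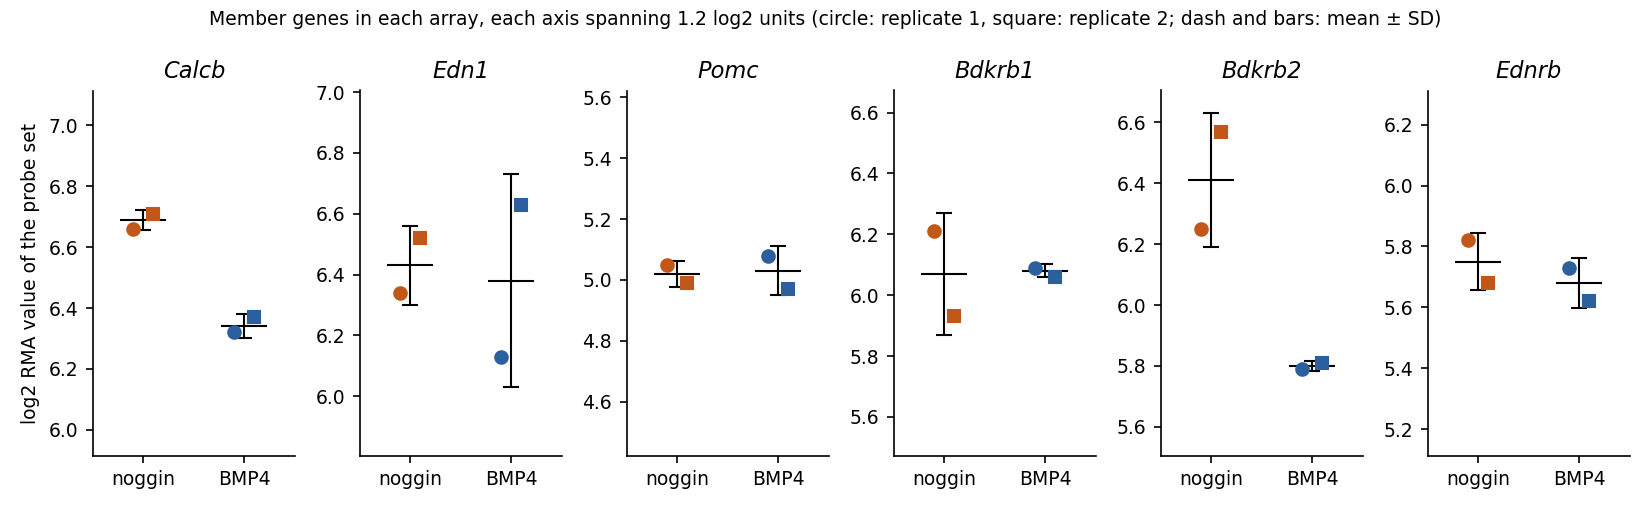
Log2 values of the 6 measured genes (vertical axis, 1 panel per gene, each spanning the same number of log2 units around that gene's own mean) in noggin and BMP4 arrays, with circles for replicate 1, squares for replicate 2, and a dash with bars for mean ± SD of 2 arrays. The groups are apart in Calcb and Bdkrb2 and overlap in Edn1, Pomc, Bdkrb1 and Ednrb.

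The arrays had medians of 6.04 to 6.06 and lower quartiles of 4.71 to 4.72. Whether a probe set was detected above background is unknown. As a rough brightness scale, 1015 olfactory receptor genes had mean values with a median of 4.17 and a 95th percentile of 5.73. Whether any of them is expressed in this epidermis was not tested. Means of Calcb, Edn1, Bdkrb1 and Bdkrb2 lay above that 95th percentile in each group, while Pomc, at 5.02 in noggin and 5.03 in BMP4, lay inside the olfactory range. Ednrb lay at its edge, at 5.75 in noggin and 5.68 in BMP4. Bdkrb2 in BMP4, at 5.80, was only just above that edge. The 10 measured keratinocyte markers averaged 12.22 and 12.23 in the noggin arrays and 12.27 and 12.25 in the BMP4 arrays. Of 10 sensory neuron markers, 5 lay below the lower quartile of all probe sets.

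Among the ligands, Calcb had log2 values of 6.66 and 6.71 in the noggin arrays, against 6.32 and 6.37 in the BMP4 arrays. Both noggin pools were high and both BMP4 pools low, and the gap of 0.29 between the groups exceeded the differences within them, 0.05 in noggin and 0.06 in BMP4. The mean was 6.69 ± 0.032 in noggin and 6.34 ± 0.039 in BMP4 (SD, n = 2 each). The difference was 0.34 (95% interval 0.10 to 0.58), with an adjusted p of 0.814 in limma. Leaving out each array in turn gave 0.31 to 0.37. Of the 19938 named genes, 709, or 3.56%, had a difference at least as high. Calcb is the chromosome 7 neighbour of Calca, the gene of calcitonin and alpha-CGRP. The CGRP-coding parts of these genes are close copies, and the share of Calca RNA that the Calcb probes bind was not tested.

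The CGRP receptor is a complex of the receptor encoded by Calcrl with the accessory protein encoded by Ramp1. Of the 9 other genes of this family that were measured, 0 passed, 4 had a higher and 5 a lower mean in noggin, and the median difference was -0.008. Calcrl had 6.99 and 7.07 in the noggin arrays, against 6.77 and 6.72 in the BMP4 arrays, a difference of 0.29 (limma, adjusted p = 0.867). Ramp1 had 6.28 and 6.27 in the noggin arrays, against 6.15 and 6.11 in the BMP4 arrays, a difference of 0.14 (limma, adjusted p = 0.939). Both receptor genes thus had noggin arrays above BMP4 arrays, as Calcb did. Ramp3, which turns the Calcrl receptor into one for adrenomedullin, differed by 0.15 and also did not overlap. Calcr, the calcitonin receptor, named after its values were seen, was barely apart in the opposite direction, with 4.92 and 4.73 in noggin, against 5.02 and 4.92 in BMP4. Crcp, of the same list and also named after its values were seen, differed by -0.287, about as far as Calcrl but lower in noggin. It had 8.20 and 7.86 in noggin, against 8.53 and 8.11 in BMP4, and the groups overlapped. Of the 9 genes 3 thus had both noggin arrays on top and 1 had both below, against 15.7% and 17.9% of the named genes. Calcrl is also an endothelial gene. The 10 endothelial markers had a median difference of 0.02, 6 higher and 4 lower in noggin. In 2 of the 10 both noggin arrays were on top, near the 15.7% of all named genes, and their mean log2 value was 6.31 and 6.12 in the noggin arrays and 6.08 and 6.24 in the BMP4 arrays. Their part in the Calcrl value was not tested. In such bulk samples, fewer cells of a type and less RNA per cell cannot be told apart.

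Edn1 had 6.34 and 6.52 in the noggin arrays, against 6.13 and 6.63 in the BMP4 arrays. The lowest and the highest of the 4 values were both BMP4 pools, whose distance of 0.50 exceeded the 0.19 between the noggin pools. The mean was 6.43 ± 0.13 in noggin and 6.38 ± 0.35 in BMP4 (SD, n = 2 each), which differ by 0.05 (95% interval -0.52 to 0.61), with an adjusted p of 0.999 in limma. Without BMP4 replicate 1 the difference was -0.20, and without BMP4 replicate 2 it was 0.30. As a ratio of noggin to BMP4 the interval ran from 0.70 to 1.53.

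Ednrb had 5.82 and 5.68 in the noggin arrays, against 5.73 and 5.62 in the BMP4 arrays. The pools of both lines were interleaved, and replicate 1 was the higher in each. The difference was 0.07 (95% interval -0.21 to 0.36), with an adjusted p of 0.983 in limma. The 9 melanocyte markers, from cells that depend on Ednrb in development, had a median difference of 0.04, with 5 higher and 4 lower in noggin. Of the 6 measured genes for other endothelins and endothelin processing, 0 passed, with 3 means higher and 3 lower in noggin. The groups overlapped in all 6. Among the named genes, both noggin arrays were on top in 15.7% and both below in 17.9%, and the rest overlapped too. Edn3, the endothelin that acts on melanoblasts through Ednrb, had 6.83 and 6.70 in noggin, against 6.58 and 6.79 in BMP4. The endothelin-converting enzyme gene Ece1 had 8.34 and 8.61 in noggin, against 8.55 and 8.63 in BMP4. Its relative Ece2 had 6.43 and 5.92 in noggin, against 6.53 and 6.37 in BMP4.

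Pomc had 5.05 and 4.99 in the noggin arrays, against 5.08 and 4.97 in the BMP4 arrays. All 4 values lay within 0.11 of each other, a narrower range than in 89.0% of the named genes, and the groups overlapped. It differed by -0.004 (95% interval -0.27 to 0.26), with an adjusted p of 1.0 in limma. Detection is unknown at this brightness, and RMA compresses the changes of dim probe sets. Of 19 measured genes for POMC processing, melanocortin signalling and opioid signalling, 0 passed, 7 had a higher and 12 a lower mean in noggin, and the median difference was -0.07. Cpe, the carboxypeptidase that trims propeptides, had 7.86 and 8.91 in the noggin arrays, against 7.27 and 7.99 in the BMP4 arrays, and the groups overlapped. Pdyn, the prodynorphin gene, had 5.85 and 5.79 in noggin, against 5.70 and 5.61 in BMP4. Oprk1, the kappa opioid receptor on which dynorphin acts, had 4.36 and 4.16 in noggin, against 4.49 and 4.46 in BMP4, all below the lower quartile.

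Among the receptors, Bdkrb2 had the widest difference of the set. It had 6.25 and 6.57 in the noggin arrays, against 5.79 and 5.81 in the BMP4 arrays. The BMP4 pools were 0.02 apart and the noggin pools 0.32 apart, and a gap of 0.44 separated the groups. The mean was 6.41 ± 0.22 in noggin and 5.80 ± 0.016 in BMP4 (SD, n = 2 each). The groups differed by 0.61 (95% interval 0.22 to 0.99, or 1.17-fold to 1.99-fold), with an adjusted p of 0.768 in limma. Without noggin replicate 2 it was 0.45 and without noggin replicate 1 it was 0.77. Among the named genes 213, or 1.07%, had a difference at least as high, and 177, or 0.888%, had a p at least as small.

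Bdkrb1 had 6.21 and 5.93 in the noggin arrays, against 6.09 and 6.06 in the BMP4 arrays, with the noggin pools on either side of the BMP4 pools. It differed by -0.01 (95% interval -0.37 to 0.34), a sign that cyclic loess turned, with an adjusted p of 1.0 in limma. The B1 and B2 receptor genes are next to each other on chromosome 12, with no other protein-coding gene between them in the RefSeq annotation. Taken within each array, the Bdkrb2 value minus the Bdkrb1 value was 0.04 and 0.64 in the noggin arrays, against -0.30 and -0.25 in the BMP4 arrays. This contrast between the neighbours differed by 0.62 between the lines, with both noggin pools above both BMP4 pools. Its exact two-sided permutation p was 0.333, and no 2 against 2 comparison can give less. Since Bdkrb1 hardly differed, the contrast largely repeats the Bdkrb2 difference of 0.61 and adds no separate evidence.

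**Figure D2:**
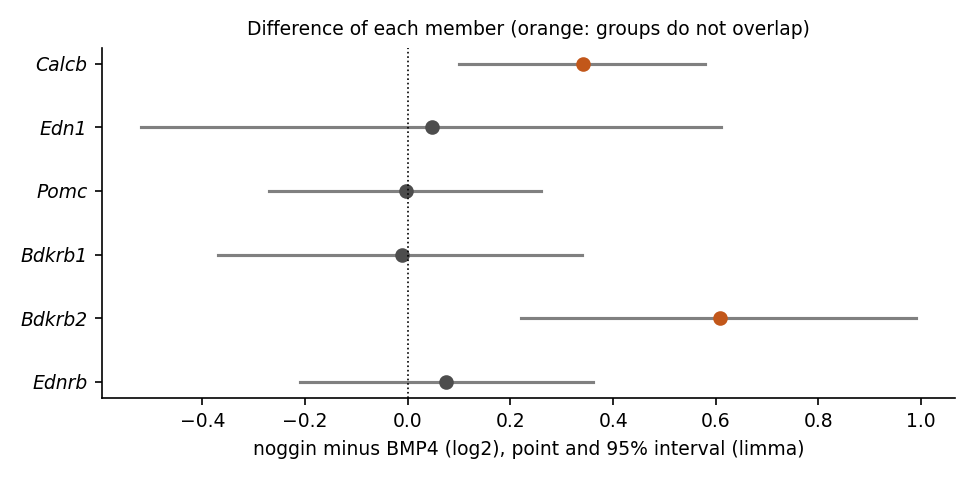
Noggin minus BMP4 difference of each measured gene on the log2 scale (horizontal axis), with points for the limma estimate from 2 noggin and 2 BMP4 arrays and lines for its 95% interval. The intervals of Bdkrb2 (0.22 to 0.99) and Calcb (0.10 to 0.58) lie above 0 before any adjustment for the number of probe sets tested, and those of the other 4 genes span 0.

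The sequence before the start of Bdkrb2 is shown because this gene had the widest difference, and that of Edn1 because its values spread most within a group. Both are the 250 bases before the gene start in the RefSeq annotation of GRCm38.p6, on the plus strand, at chr12:105562922-105563171 for Bdkrb2 and chr13:42301226-42301475 for Edn1. Capitals mark matches, on either strand, to motifs bound by SMADs, the transcription factors of BMP and TGF-beta signalling, namely GGAGCC and GTCT.
Bdkrb2: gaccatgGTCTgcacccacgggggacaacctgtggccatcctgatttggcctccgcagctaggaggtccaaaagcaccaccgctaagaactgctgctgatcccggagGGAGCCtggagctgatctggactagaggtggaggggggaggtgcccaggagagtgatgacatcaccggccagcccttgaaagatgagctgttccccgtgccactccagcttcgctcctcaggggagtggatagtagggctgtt
Edn1: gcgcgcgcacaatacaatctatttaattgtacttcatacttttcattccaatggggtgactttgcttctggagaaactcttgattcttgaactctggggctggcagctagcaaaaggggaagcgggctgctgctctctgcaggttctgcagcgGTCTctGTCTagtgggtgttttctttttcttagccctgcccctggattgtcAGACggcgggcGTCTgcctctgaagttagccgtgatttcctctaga

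The Bdkrb2 window held 1 GGAGCC, starting 143 bases before the gene start, and 1 GTCT, starting 243 bases before it. The Edn1 window held 4 matches to GTCT and none to GGAGCC. These motifs are short and frequent: of 32851 windows of the same length before all annotated starts, 26.0% held GGAGCC and 82.9% held GTCT, with a mean of 1.87 GTCT per window. GGCGCC, also bound by SMADs and present in 9.59% of windows, the AP-1 motif TGANTCA (6.75%), the CRE TGACGTCA (1.55%) and the TATA box TATAAA (12.4%) were in neither window. No marked matches overlapped. Binding was not measured, and a match describes the letters only.

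Kinins are made from kininogens by kallikreins and removed by peptidases. Of 9 measured genes for kinin generation and breakdown, 0 passed, 5 had a higher and 4 a lower mean in noggin, and the median difference was 0.07. The kallikrein genes of this list, Klkb1 and Klk1, were not among the 9 and were not analysed here. Of the 9 genes, 2 lay below the lower quartile of all probe sets. Cpm, a membrane carboxypeptidase that converts bradykinin into a B1 agonist, had 7.45 and 7.92 in the noggin arrays, against 6.83 and 7.68 in the BMP4 arrays, and the groups overlapped. Its soluble relative Cpn1 had 4.72 and 4.66 in noggin, against 4.43 and 4.67 in BMP4, around the lower quartile of the arrays. F12, the coagulation factor that starts the plasma kinin cascade, had 6.48 and 6.07 in noggin, against 6.39 and 6.52 in BMP4.

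F2rl1 encodes PAR2, a receptor that proteases switch on by cutting its outer end, and epidermal kallikreins are among the proteases known to do so. Of 18 measured genes for the other protease-activated receptors, activating proteases and their inhibitors, 0 passed, 14 had a higher and 4 a lower mean in noggin, and the median difference was 0.098. Both noggin arrays were on top in 6 of the 18 and both below in 2, against 15.7% and 17.9% of the named genes. Klk6, a kallikrein-related peptidase, had 6.62 and 6.76 in the noggin arrays, against 5.97 and 6.05 in the BMP4 arrays. Its groups were far apart relative to their spread, with a 1.61-fold difference and an adjusted p of 0.701 (limma). Klk7, a peptidase that cuts corneodesmosomes, had 11.64 and 11.60 in noggin, against 11.06 and 11.45 in BMP4. The kallikreins did not all go this way. Klk14, named after its values were seen, had both noggin arrays below, with 6.36 and 6.20, against 6.92 and 6.40 in BMP4. In Klk5 and Klk8, named likewise, the groups overlapped. F2rl2, which encodes PAR3, a thrombin receptor, had 5.95 and 5.71 in noggin, against 5.05 and 5.63 in BMP4. In Klk7 and F2rl2 BMP4 replicate 1 was the lowest array by the widest step. Ctss, named after its values were seen, encodes cathepsin S, a protease abundant in antigen-presenting cells. It had the widest difference of the list, with 8.90 and 9.40 in noggin, against 7.36 and 8.85 in BMP4, and BMP4 replicate 1 was again the low array, without which the difference was 0.30 in place of 1.05.

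In the 14 measured genes of the other sensory neuropeptides and their receptors, 0 passed, with 7 means higher and 7 lower in noggin and a median difference of 0.01. Of these genes 6 lay below the lower quartile of all probe sets. Nppb, the natriuretic peptide of itch-transmitting neurons, had 5.76 and 6.14 in the noggin arrays, against 5.75 and 5.56 in the BMP4 arrays, a separation of the groups that rests on values that nearly touch. Npy had 7.01 and 6.97 in noggin, against 7.09 and 7.20 in BMP4. Its receptor gene Npy1r had 4.25 and 4.45 in noggin, against 4.26 and 4.20 in BMP4. Over all 6 lists 75 of 80 genes were measured, of which 40 had a higher and 35 a lower mean in noggin. Of the 75, 2 genes, Klk6 and Calcrl, or 2.67%, had an unadjusted p below 0.05, against 4.28% of the named genes.

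**Figure D3:**
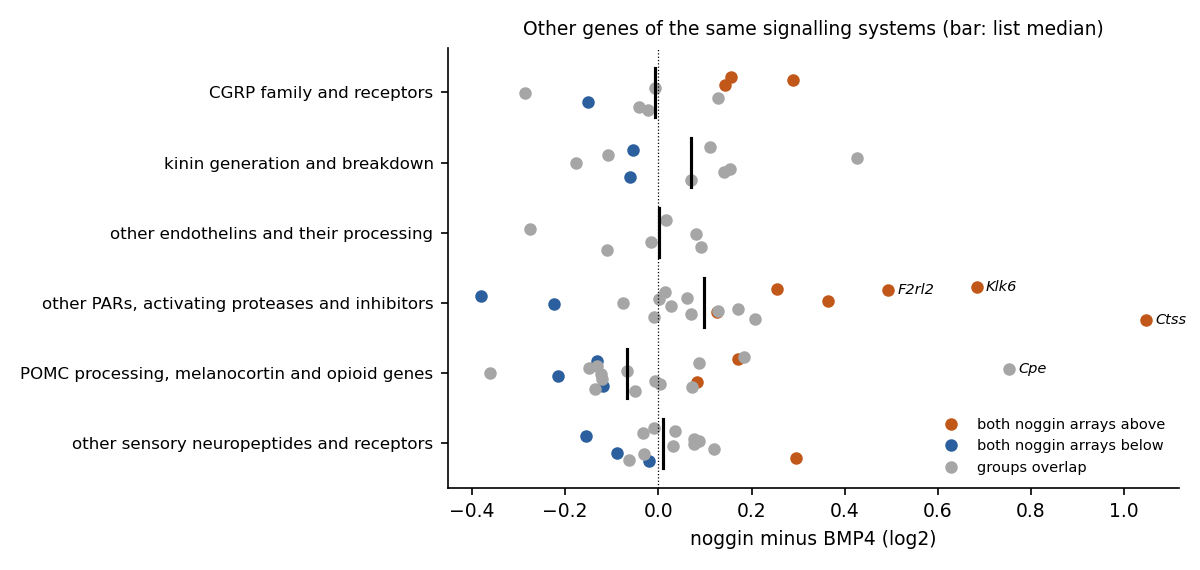
Noggin minus BMP4 differences on the log2 scale (horizontal axis) of the other genes of the same signalling systems, 1 point per gene and 1 row per list, with a bar at the list median. Orange points have both noggin arrays above both BMP4 arrays, blue points the reverse, and grey points overlap. The list medians lie between -0.07 and 0.098, and Klk6, F2rl2, Ctss and Cpe lie farthest to the noggin side.

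No marker gene of another cell type passed. The 10 Langerhans cell and macrophage markers all had a higher mean in noggin, against 47.8% of the named genes, and 6 of the 10 had both noggin arrays on top, against 15.7%. They had a median difference of 0.74, and their mean log2 value was 8.13 and 8.29 in the noggin arrays, against 7.06 and 7.96 in the BMP4 arrays. Of 11 skeletal muscle markers 10 averaged higher in noggin and the median difference was 0.63, but the groups overlapped in all but 2, a share near the 15.7% of all named genes. Their mean log2 values were 8.27 and 7.46 in the noggin arrays, against 6.82 and 7.71 in the BMP4 arrays. None of these markers lay below the lower quartile of all probe sets. BMP4 replicate 1 was the lowest array in both lists, and noggin replicate 2 lay below BMP4 replicate 2 in the muscle list. In the Langerhans cell and macrophage list both BMP4 arrays lay below both noggin arrays, as in Bdkrb2 and Calcb. Without BMP4 replicate 1, Bdkrb2 differed by 0.60 and Calcb by 0.31. The remaining BMP4 mean of the Langerhans cell and macrophage list, 7.96, then still lay below the noggin means of 8.13 and 8.29. The part of these cells in the Bdkrb2 and Calcb values was not tested. In the other 10 of 12 marker lists the median difference lay between -0.06 and 0.13.

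**Figure D4:**
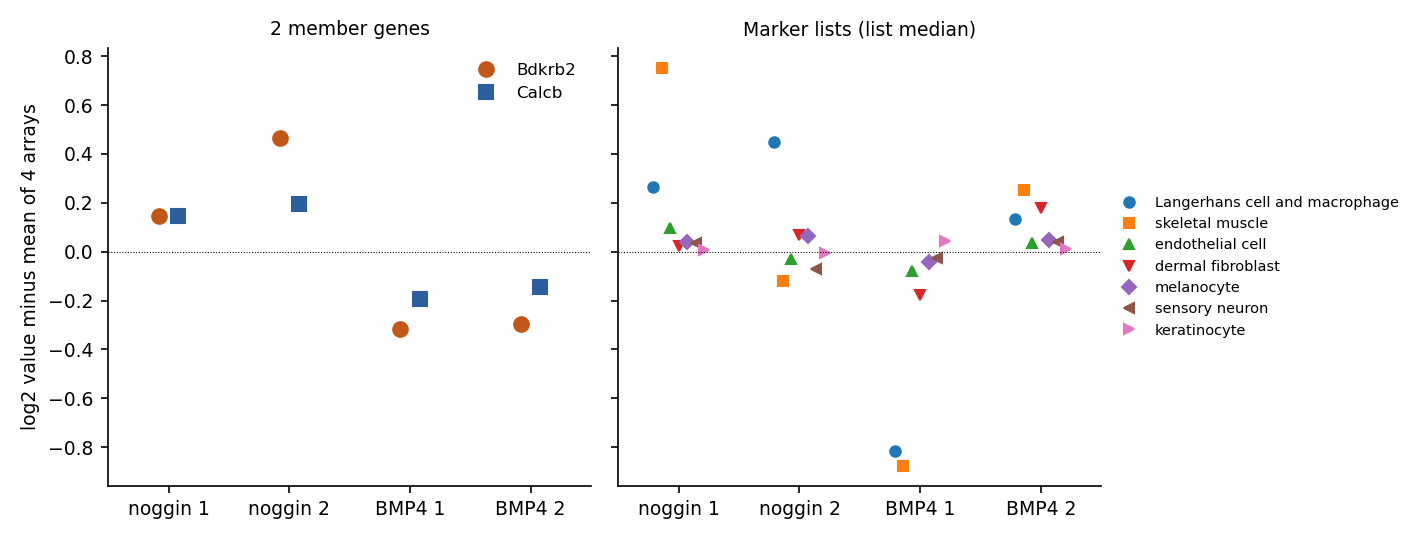
Values relative to the mean of the 4 arrays (vertical axis, log2) for Bdkrb2 and Calcb (left) and for the medians of 7 marker lists (right), by array. Bdkrb2 and Calcb are low in both BMP4 arrays. The Langerhans cell and macrophage list (-0.82) and the skeletal muscle list (-0.88) are lowest in BMP4 replicate 1. In the Langerhans cell and macrophage list BMP4 replicate 2 (0.132) also lies below both noggin arrays (0.265 and 0.448).

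For the 3 members with the widest range over the 4 arrays, the genes with the most similar pattern were sought among 18707 others by centring each gene on its own mean and taking the largest gap over the 4 arrays. Nearest to Bdkrb2 were Eci2, Barx2 and Zfp81, with largest gaps of 0.053 to 0.057 on the log2 scale, and 10 genes lay within 0.1. Eci2 had 7.05 and 7.27 in the noggin arrays, against 6.58 and 6.51 in the BMP4 arrays. Nearest to Calcb were Vldlr, Slc15a1 and Sla, with gaps of 0.02 to 0.024, and 217 genes lay within 0.1. Nearest to Edn1 were Dnmt3a, Slamf7 and Cd163, with gaps of 0.003 to 0.041, and 95 genes lay within 0.1. With 4 arrays such likeness is a description only.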

How the data were processed

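Each array measured a pool of RNA from laser-captured epidermis, amplified by the NuGEN pico protocol and labelled with biotin, per the labels' protocols. The authors deposited log2 values per probe set, made with RMA in Affymetrix Expression Console, tools listed without versions in the submitters' processing notes. RMA equalizes the arrays' distributions, so differences in overall signal are removed. Precision is limited by the number of arrays.

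All 35556 probe sets were fitted with limma 3.58.1 in R 4.3.3 (2 groups, no covariate, two-sided, 2 residual and 2.08 prior degrees of freedom), with Benjamini-Hochberg adjustment over all of them and a threshold of 0.05. Of these, 21789 carried 1 gene symbol in the platform annotation, 1621 several and 12146 none. A gene was its probe set with the highest mean. The code was tested on simulated data. Replicates are pools of different animals. Arrays with the same replicate number were not treated as pairs, since no label ties a number to a litter or day. Deviations of same-numbered arrays correlated at -0.119, which with 2 arrays per group does not settle whether they shared a batch.

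The members and the 18 gene lists were chosen with earlier results of these data known. Named were all measured members, the 3 genes of smallest p of each of 6 pathway lists, the 3 nearest genes of the 3 members of widest range, and, after their values were seen, Ctss, Calcr, Crcp, Klk5, Klk8 and Klk14. Alternatives were a replicate block, a trend or robust prior, a filter on dim probe sets, median centring, quantile normalization, cyclic loess, the mean of a gene's probe sets and leaving out each array. Promoter sequences are RefSeq's (GRCm38.p6), found for 4 of the 6 measured members.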

Additional observations from a re-analysis of the deposited data

How the results depend on the processing

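No alternative brought a member or any probe set past the threshold. With the replicate number as a block, limma again called 0 probe sets and 0 members, and Bdkrb2 had an adjusted p of 0.955 and Calcb one of 0.988 in this paired fit. Over all alternatives the smallest adjusted p was 0.689 for Bdkrb2 and 0.724 for Calcb (limma). The count of members with a higher mean in noggin was 4 to 5 on leaving out 1 array, 5 after a further quantile normalization and 6 after cyclic loess. The sign turned for Bdkrb1 after cyclic loess (0.005) and for Pomc after cyclic loess and quantile normalization (0.01 each), sizes at which no direction can be read. Leaving out 1 array gave -0.153 to 0.127 for Bdkrb1, -0.06 to 0.053 for Pomc, -0.202 to 0.296 for Edn1 and 0.007 to 0.14 for Ednrb. It gave -0.246 to 0.024 for Ece1, -0.024 to 0.183 for Edn3, -0.383 to 0.031 for F12, -0.163 to 0.284 for Cd163, -0.2 to 0.301 for Dnmt3a and -0.222 to 0.248 for Slamf7. The values of Bdkrb2 ranged from 0.449 to 0.766 and those of Calcb from 0.313 to 0.368. The mean of all probe sets changed no member's value, since each has 1 probe set. With 3 arrays the lone pool of a group is assumed to vary like the other group's pools. Signal over background is unknown, which limits Pomc and Ednrb most, and also the BMP4 values of Bdkrb2.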
